A study of Homo sapiens with 6 samples.

Results

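The 39 genes described here encode glucose transporters, the enzymes of glycolysis, the lactate enzymes and transporters, pyruvate dehydrogenase and its kinases, and HIF1A with 4 of its hypoxia-inducible target genes. They were taken by gene symbol from a list written with earlier results of these data known, and all 39 were found among the 61155 gene rows of the count table and among the 19521 genes tested. Bulk RNA sequencing had been performed on H7 cells, an established human embryonic stem cell (hESC) line, grown undifferentiated and without feeders on Matrigel in TeSR-E8 medium. There were 3 libraries of wild-type (WT) cells and 3 of S6K1-/- cells, in which CRISPR/Cas9 was aimed at exons 9 and 11 of RPS6KB1, the gene encoding the kinase S6K1. The study names clone #1 for the S6K1-/- hESCs of this comparison, so genotype and clone cannot be told apart. The labels also give a time of week 5 and call the depleted samples a knockdown, whereas their protocols describe undifferentiated knockout cells. Nothing states that the 3 libraries of a group came from separate cultures, so the p-values below measure the spread between libraries, which may be technical.

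Glucose enters the cell through GLUT transporters of the SLC2A family, is trapped by hexokinase as glucose 6-phosphate, and is committed to glycolysis by phosphofructokinase. The lower steps yield pyruvate, which lactate dehydrogenase converts to lactate for export by monocarboxylate transporters, or which pyruvate dehydrogenase converts to acetyl-CoA for the mitochondria unless a pyruvate dehydrogenase kinase (PDK) holds that enzyme inactive. Human pluripotent stem cells in the primed state are known for a high rate of glycolysis even with oxygen present, and many of these genes are textbook targets of the hypoxia-inducible factor HIF1A.

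Library totals ranged from 21896698 to 24473013 counts. The 39 genes took between 1.20% and 1.28% of the counts in WT libraries and between 1.10% and 1.13% in S6K1-/- libraries, and GAPDH alone held between 28.2% and 30.8% of their counts. The targeted gene RPS6KB1 had 831, 791 and 777 counts in WT and 464, 464 and 438 in S6K1-/- libraries, a log2 fold change of -0.75 (SE 0.057, edgeR adjusted p = 2.52e-07). The row sums the whole gene, so where the remaining reads fall was not examined. All 8 pluripotency markers examined passed the count filter, and their summed level was 5067 to 5205 CPM (counts scaled to a library of 1000000) in WT and 4794 to 4802 CPM in S6K1-/- libraries. At an edgeR adjusted p of 0.05, 2 markers were lower, DNMT3B (log2 fold change -0.35) and TDGF1 (-0.15), which is 25.0% against 8.31% of all genes tested. There was 1 higher, ZFP42 (0.17), which is 12.5% against 5.47%. DNMT3B had mean levels of 1412 CPM in WT and 1106 CPM in S6K1-/- libraries and also passed 0.001 (edgeR adjusted p = 4.88e-05). The 6 endoderm markers summed to 8.27 to 10.8 CPM in WT and 4.36 to 5.45 CPM in S6K1-/- libraries, with 2 of them at or under 3 counts in every library. The 6 mesoderm markers summed to 13.1 to 14.6 and 15.3 to 16.5 CPM, with 1 of them at or under 3 counts. The neuroectoderm list (435 to 454 against 424 to 439 CPM, 2 of 6 markers at or under 3 counts) and the mesenchyme list (483 to 506 against 474 to 494 CPM, 4 of 6 at or under 3 counts) were carried by NES and THY1, whose groups overlapped. Of the other tested markers past 0.05, PAX6 and SOX1 (neuroectoderm) had log2 fold changes of 0.76 and 1.29, MIXL1 (mesoderm) had 0.24, FOXA2 and CXCR4 (endoderm) had -0.88 and -1.26, and PDGFRB (mesenchyme) had -1.34, and OTX1, which was not tested, had 7 to 14 counts in WT and 1 to 2 in S6K1-/- libraries. The part of these marker differences in the results below was not tested.

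S6K1-/- cells had less mRNA of the glucose transporters SLC2A1 and SLC2A3 and of the upper glycolytic enzymes HK1 and PFKP, and more mRNA of the kinase PDK1. SLC2A1 fell by 33.7%, SLC2A3 and HK1 fell by 17.4%, PFKP fell by 15.9%, and PDK1 rose 1.59-fold. These 5 genes passed an edgeR adjusted p of 0.001, which is 12.8% of the 39 against 3.96% of all genes tested. The study used this threshold with DESeq2. By the DESeq2 Wald test 5 of the 39 were lower, with GAPDH added, and 1 was higher (2.59% and 1.74% of all genes in that fit). The 4 genes lower by edgeR are 10.3% of the 39, against 2.54% of all genes tested that were called lower, and the 1 higher gene is 2.56% of the 39, against 1.42% of all genes called higher. With 1 library left out, the number lower ranged from 0 to 4 (1.57% to 2.24% of all genes), while PDK1 kept its call. At an adjusted p of 0.05 the counts were 7 lower (17.9%, background 8.31%) and 1 higher (2.56%, background 5.47%), or 20.5% in either direction against 13.8%. Fold changes were below 0 for 29 of the 39 genes (74.4%, against 50.6% of all genes tested), with a median log2 fold change of -0.07 against -0.0024 over all genes. In bulk RNA, fewer cells of a type and less RNA per cell cannot be told apart.

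**Figure D1:**
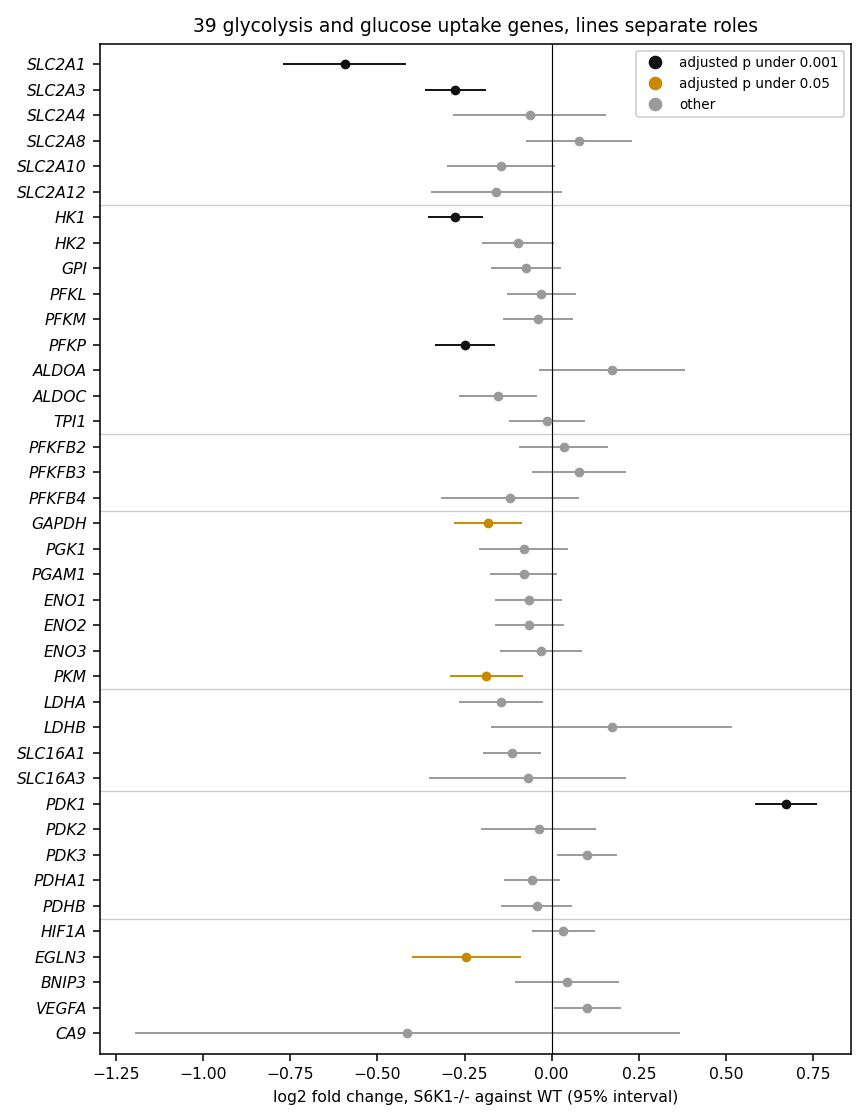
Log2 fold change of S6K1-/- against WT for the 39 genes (horizontal axis, log2 scale), grouped by role, with edgeR's 95% interval as the bar. SLC2A1 lies at -0.59 and PDK1 at 0.67, while most other genes lie nearer to 0, and CA9 has the widest interval (-1.20 to 0.37).

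HIF1A binds the hypoxia response element, and the letters of its core were looked for in a short window before each gene's start. Promoter windows of RefSeq (GRCh38.p14) were searched over the 250 bases before the start for ACGTG and GCGTG on both strands, where CACGTG is matched once on each strand. Of the 39 genes, 34 had a window and 28 had one that ends at the start of the gene's MANE Select transcript, the reference transcript agreed by RefSeq and Ensembl. SLC2A3, SLC2A4, PFKFB2, SLC16A1 and VEGFA had none. Of the 28 windows 20 held a match (71.4%), against 52.1% of the windows of 14475 genes. The windows printed are those of the called genes with the largest fall and rise and, for comparison, LDHA and BNIP3, known HIF1A targets rich in matches. Capitals mark the matches, each stretch is read 5′ to 3′ on the gene's strand, and bases that another transcript of the gene places in an exon are left off, except that of the PDK1 window only the last 30 bases, which hold its matches, are printed.
SLC2A1, chr1:42958894-42959118, minus strand: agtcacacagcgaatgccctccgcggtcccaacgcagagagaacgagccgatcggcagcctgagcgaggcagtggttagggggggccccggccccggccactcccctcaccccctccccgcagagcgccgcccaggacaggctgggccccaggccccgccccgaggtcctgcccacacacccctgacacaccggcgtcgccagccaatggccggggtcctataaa
PDK1, chr2:172556060-172556089, plus strand: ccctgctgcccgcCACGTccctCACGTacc
LDHA, chr11:18394313-18394559, plus strand: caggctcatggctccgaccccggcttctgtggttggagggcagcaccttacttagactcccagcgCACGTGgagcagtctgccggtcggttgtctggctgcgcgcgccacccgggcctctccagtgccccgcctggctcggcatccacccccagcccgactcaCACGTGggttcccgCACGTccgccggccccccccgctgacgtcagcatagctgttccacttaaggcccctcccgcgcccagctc
BNIP3, chr10:131981968-131982173, minus strand: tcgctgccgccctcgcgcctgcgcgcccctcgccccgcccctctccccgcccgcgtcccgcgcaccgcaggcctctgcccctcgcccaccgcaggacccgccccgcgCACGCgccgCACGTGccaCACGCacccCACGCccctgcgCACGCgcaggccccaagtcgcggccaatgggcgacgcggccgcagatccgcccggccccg
The whole window of SLC2A1 held 0 matches and that of PDK1 held 2, which begin 17 and 8 bases before the start. The window of LDHA held 5 and that of BNIP3 held 6. A match is a run of letters and not a bound site, and no match says only that these letters are not in this window.

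Glucose transporters had 2 of 6 genes lower at 0.001, SLC2A1 and SLC2A3 (33.3%, against 2.54% of all genes tested). Of the 6 fold changes, 5 were below 0 (83.3%, against 50.6%, median log2 fold change -0.15). SLC2A1 encodes GLUT1, the basal glucose transporter of most cells, and lies on chromosome 1 from 42925353 to 42958893. It had 160.9, 195.3 and 154.2 CPM in WT libraries and 111.6, 125.9 and 100.6 CPM in S6K1-/- libraries. Every S6K1-/- library was below every WT library, although replicate 2 stood above the other two in both groups. Mean levels were 170.1 ± 22.1 and 112.7 ± 12.7 CPM (SD, n = 3), a log2 fold change of -0.59 (SE 0.083, 95% interval -0.77 to -0.42, edgeR adjusted p = 0.000144). The call was lost by a narrow margin without S6K1-/- replicate 1 (edgeR adjusted p = 0.00101) or without S6K1-/- replicate 3 (edgeR adjusted p = 0.0017).

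SLC2A3 encodes GLUT3, a transporter with high affinity for glucose known from neurons and pluripotent cells. Its libraries had 982.5, 993.6 and 998.5 CPM in WT and 795.6, 847.3 and 812.5 CPM in S6K1-/- cells. The groups were separated by more than their spread, with means of 991.5 ± 8.2 and 818.5 ± 26.4 CPM (SD, n = 3) and a log2 fold change of -0.28 (SE 0.041, 95% interval -0.36 to -0.19, edgeR adjusted p = 0.000254). Removing WT replicate 1, WT replicate 3, S6K1-/- replicate 1 or S6K1-/- replicate 3 raised its edgeR adjusted p to between 0.00141 and 0.00374. SLC2A14, a near-identical copy of SLC2A3 beside it in the genome, had 89, 84 and 66 counts in WT and 45, 49 and 41 in S6K1-/- libraries (log2 fold change -0.76, edgeR adjusted p = 0.00368). How reads were divided between these copies is uncertain, and the SLC2A3 row held 99.6% to 99.8% of their counts.

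The remaining transporters had low levels and none passed 0.05. SLC2A8 and SLC2A4, the insulin-responsive GLUT4, had log2 fold changes of 0.08 and -0.06 with overlapping groups. SLC2A10 and SLC2A12 had -0.15 and -0.16 (edgeR adjusted p = 0.217 and 0.276), and the groups were apart for SLC2A10 (12.5 to 13.5 CPM against 11.5 to 12.0 CPM). Of the exonic bases of SLC2A12, 51.2% lie opposite a gene on the other strand, and the strand setting of the counting is not given in the sources used here.

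**Figure D2:**
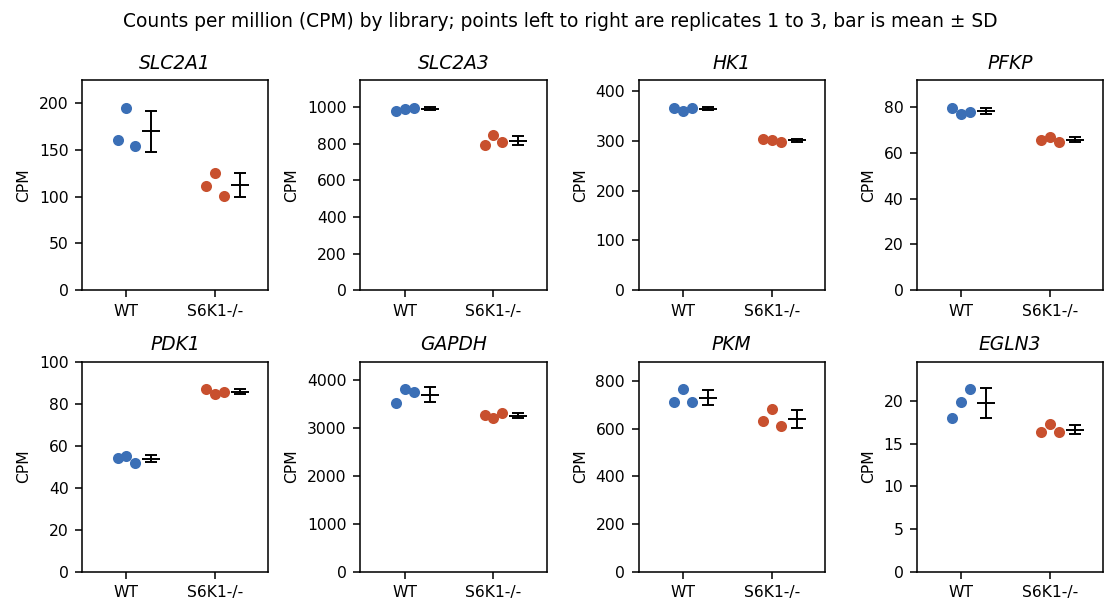
CPM in each library (points, replicates 1 to 3 from left to right) with the mean and SD of 3 libraries, for the 8 genes with an adjusted p under 0.05, on axes that start at 0. In every panel the groups are apart, with S6K1-/- below WT except for PDK1, where 85.0 to 87.2 CPM stand above 52.1 to 55.4 CPM.

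Upper glycolysis, from hexokinase to triose phosphate isomerase, had 2 of 9 genes lower at 0.001, HK1 and PFKP (22.2%, against 2.54% of all genes tested). Of the 9 fold changes, 8 were below 0 (88.9%, against 50.6%, median -0.07). HK1 encodes the hexokinase that most cells use at all times. It had 365.7, 361.0 and 366.9 CPM in WT libraries and 304.2, 301.0 and 297.7 CPM in S6K1-/- libraries. The difference was far larger than the spread within either group, with means of 364.5 ± 3.2 and 301.0 ± 3.2 CPM (SD, n = 3). The log2 fold change was -0.28 (SE 0.037, 95% interval -0.36 to -0.20, edgeR adjusted p = 0.000104), and without WT replicate 1 or 3 or S6K1-/- replicate 1 or 3 the adjusted p rose to between 0.00101 and 0.00148. HK2, the inducible hexokinase, had 80.0, 86.4 and 82.6 CPM in WT and 79.2, 80.8 and 72.7 CPM in S6K1-/- libraries, with a log2 fold change of -0.10 and groups that overlapped (edgeR adjusted p = 0.217).

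Phosphofructokinase is encoded by PFKL, PFKM and PFKP, named for liver, muscle and platelet. PFKP had 79.9, 77.0 and 78.1 CPM in WT libraries and 65.9, 67.2 and 64.7 CPM in S6K1-/- libraries. The groups did not overlap, and the log2 fold change was -0.25 (SE 0.041, 95% interval -0.34 to -0.16, edgeR adjusted p = 0.00061). This call was the least firm of the 5, since it kept an edgeR adjusted p under 0.001 in 1 of the 6 fits that left out 1 library, without WT replicate 2, and in the other fits the values were 0.00191 to 0.0067. PFKL and PFKM had log2 fold changes of -0.03 and -0.04, with intervals of -0.13 to 0.07 and -0.14 to 0.06.

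TPI1, encoding triose phosphate isomerase, had the highest mean CPM of the upper enzymes, with 521.6, 605.2 and 540.5 CPM in WT and 538.0, 555.8 and 558.4 CPM in S6K1-/- libraries. The groups overlapped and the log2 fold change was -0.01 (95% interval -0.12 to 0.10). GPI, the isomerase after hexokinase, had -0.07 with overlapping groups. The aldolases had fold changes of opposite sign, and neither passed 0.05 in the test on genotype alone with all libraries. ALDOC had 50.2, 54.1 and 48.8 CPM in WT and 44.5, 48.3 and 44.8 CPM in S6K1-/- libraries (log2 fold change -0.15, edgeR adjusted p = 0.0688), with groups that did not overlap. Its edgeR adjusted p was 0.047 without S6K1-/- replicate 2 and 0.0371 with the replicate number as a block. ALDOA had 0.17 (edgeR adjusted p = 0.292), and its row held only 370 to 520 counts. In the GENCODE 44 annotation 1639 of the 3829 exonic bases of ALDOA lie in another gene on the same strand, so its row is uncertain.

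The bifunctional PFKFB enzymes make and remove fructose 2,6-bisphosphate, the strongest activator of phosphofructokinase. Of the 3, 0 passed edgeR's test at an adjusted or an unadjusted p of 0.05, and 0 passed DESeq2's test at an adjusted p of 0.05. By edgeR, 14.5% of all genes tested were lower and 11.8% higher at an unadjusted p of 0.05. PFKFB2 had 39.1, 34.4 and 35.2 CPM in WT and 35.4, 37.6 and 38.3 CPM in S6K1-/- libraries, overlapping groups with a log2 fold change of 0.03 (95% interval -0.09 to 0.16). PFKFB3 and PFKFB4 had 0.08 and -0.12, also with overlapping groups.

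Lower glycolysis, from GAPDH to pyruvate kinase, had 0 of 7 genes past 0.001, where 2.54% of all genes tested were lower. With no filter on low counts it had 2, GAPDH and PKM, where 2.6% of all genes were lower. All 7 fold changes were below 0, from -0.19 to -0.03 (median -0.08), against 50.6% of all genes tested. GAPDH and PKM passed 0.05 (28.6%, against 8.31% of all genes lower) and were the 2 genes under it before adjustment (background 14.5%). Each kept an adjusted p under 0.05 in only 3 of the 6 fits that left out 1 library. GAPDH, which oxidizes glyceraldehyde 3-phosphate and is often used as a reference gene, had 3529, 3816 and 3753 CPM in WT and 3264, 3202 and 3312 CPM in S6K1-/- libraries. The groups did not overlap, and the log2 fold change was -0.18 (SE 0.046, 95% interval -0.28 to -0.08, edgeR adjusted p = 0.0146). The DESeq2 Wald test gave it an adjusted p of 0.000178, and edgeR with no filter on low counts gave 0.000832, while leaving out WT replicate 3 or either of S6K1-/- replicates 1 and 2 put its edgeR adjusted p at 0.059 to 0.0792. PKM encodes pyruvate kinase, whose splice forms PKM1 and PKM2 are summed in this row. It had 710.3, 766.5 and 713.6 CPM in WT and 630.3, 682.4 and 610.0 CPM in S6K1-/- libraries, which did not overlap, with a log2 fold change of -0.19 (SE 0.049, 95% interval -0.29 to -0.08, edgeR adjusted p = 0.0181). Leaving out WT replicate 2 or either of S6K1-/- replicates 1 and 3 put its edgeR adjusted p at 0.054 to 0.0846, and with no filter on low counts it was 0.000337.

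For the other lower enzymes the groups overlapped. PGK1 and PGAM1, phosphoglycerate kinase and mutase, both had a log2 fold change of -0.08, with edgeR adjusted p values of 0.436 and 0.279. Enolase is encoded by ENO1, ENO2 and ENO3, and these had -0.07, -0.06 and -0.03. ENO1 was the most abundant of them, with 1547, 1688 and 1571 CPM in WT and 1493, 1548 and 1551 CPM in S6K1-/- libraries.

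**Figure D3:**
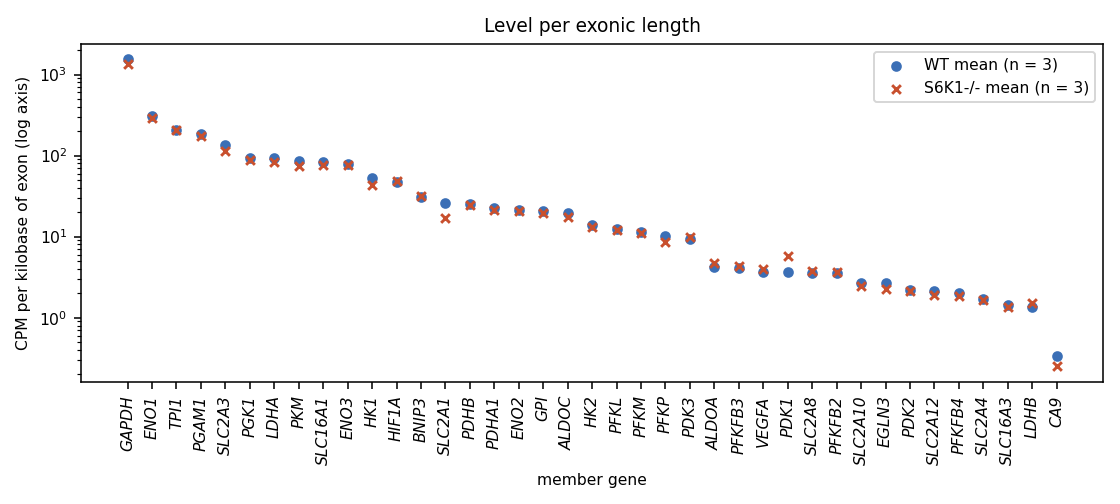
Mean level of each gene in CPM per kilobase of exon (vertical log axis) in WT (circles) and S6K1-/- libraries (crosses), n = 3 each, ordered by the WT level. GAPDH stands highest at 1544 in WT and 1360 in S6K1-/-, and CA9 lowest at 0.34 and 0.25.

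Per length of exon, the genes spanned a wide range of levels. In CPM per kilobase of annotated exon the WT levels were 1544 for GAPDH, 307.2 for ENO1, 205.8 for TPI1, 184.2 for PGAM1 and 136.7 for SLC2A3. SLC2A3 thus stood in place 5 of the 39, and the lactate carrier gene SLC16A1 stood at 82.4 in place 9, between PKM (85.2) and ENO3 (79.0). SLC2A1 stood at 25.7 in place 14. PDK1 had 3.63 in WT and 5.79 in S6K1-/- libraries on this scale. Exon length here is the union over all annotated transcripts, so that genes with long alternative exons such as PDK1 and PDK3 have low values. Neighbours in this order were not tested against each other.

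The lactate group had 0 of 4 genes past 0.05 by edgeR, 2 at an unadjusted p of 0.05 (background 14.5%) and 1 by the DESeq2 Wald test at an adjusted p of 0.05 (background 5.6%), all lower. LDHA, which reduces pyruvate to lactate, had 523.2, 607.5 and 549.5 CPM in WT and 492.1, 541.1 and 484.9 CPM in S6K1-/- libraries. WT replicate 1 lay below S6K1-/- replicate 2, so the groups overlapped, and the log2 fold change was -0.15 (95% interval -0.27 to -0.03, edgeR adjusted p = 0.106). LDHA passed 0.05 with no filter on low counts (edgeR adjusted p = 0.0108) and without S6K1-/- replicate 2 (edgeR adjusted p = 0.0498). SLC16A1, encoding the lactate carrier MCT1, had 518.3, 524.3 and 525.9 CPM in WT and 473.7, 479.8 and 496.8 CPM in S6K1-/- libraries. The groups were apart, but the log2 fold change of -0.11 had an edgeR adjusted p of 0.0691. SLC16A3, encoding MCT4, had -0.07 and LDHB had 0.17 (edgeR adjusted p = 0.554) on 79 to 131 counts. LDHB shares 997 of its 2983 exonic bases with another gene on the same strand, so its low row is uncertain too.

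Pyruvate dehydrogenase and its kinases had 1 of 5 genes higher at 0.001, PDK1, and none lower. Of all genes tested, 1.42% were higher and 2.54% were lower. PDK1 phosphorylates the E1 alpha subunit of pyruvate dehydrogenase, which inactivates the complex, and lies on chromosome 2 from 172555373 to 172608669. It had 54.3, 55.4 and 52.1 CPM in WT libraries and 87.2, 85.0 and 85.6 CPM in S6K1-/- libraries. The S6K1-/- libraries were tightly grouped far above WT, at 85.9 ± 1.2 against 53.9 ± 1.7 CPM (SD, n = 3), a log2 fold change of 0.67 (SE 0.042, 95% interval 0.58 to 0.76, edgeR adjusted p = 2.65e-08). All 6 fits that left out 1 library kept the call, with log2 fold changes of 0.65 to 0.69.

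PDK3, the most abundant gene of this group in CPM, had 159.8, 157.9 and 169.9 CPM in WT and 174.7, 174.8 and 173.6 CPM in S6K1-/- libraries. The groups were apart, but the log2 fold change was 0.10 with an edgeR adjusted p of 0.116. PDK2 had -0.04 (95% interval -0.20 to 0.13). PDHA1 and PDHB, which encode the alpha and beta subunits of the E1 enzyme that these kinases act on, had -0.06 and -0.04. The groups did not overlap for PDHA1 (109.6 to 111.1 against 105.6 to 106.6 CPM, edgeR adjusted p = 0.37). Other genes on the opposite strand share 38.6% of the exonic bases of PDK2 and 19.3% of those of PDHA1, as they share 17.6% of those of GAPDH and 35.7% of those of CA9, and the part of this overlap in their rows was not tested.

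**Figure D4:**
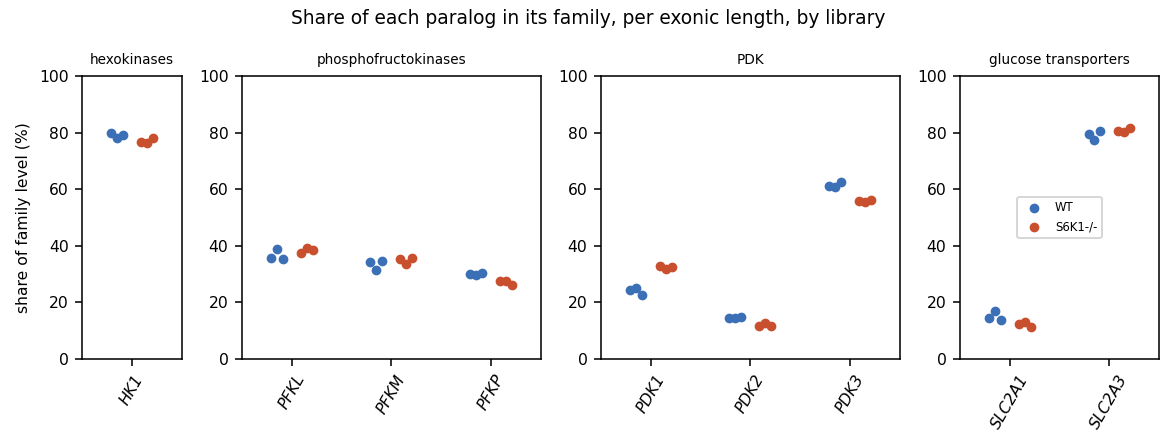
Share of each gene within its family, in percent of the family's length-scaled counts, per library (points), for 4 families. The PDK1 share is 22.6% to 25.0% in WT and 31.7% to 32.7% in S6K1-/- libraries.

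Genes for the same step were also compared as shares of their family within each library, which removes the scaling between libraries. Counts were divided by exonic length first. The PDK1 share of PDK1, PDK2 and PDK3 was 24.0% ± 1.3 in WT and 32.3% ± 0.5 in S6K1-/- libraries (SD, n = 3), 8.30 percentage points higher, and the PDK3 share was 61.5% and 55.7%. HK1 took 79.1% ± 0.8 of the hexokinase pair HK1 and HK2 in WT and 77.0% ± 0.9 in S6K1-/- libraries, and PFKP took 30.0% ± 0.3 and 27.0% ± 0.7 of the phosphofructokinases. Among the 6 transporters SLC2A1 took 14.9% ± 1.6 and 12.2% ± 1.0, while SLC2A3 took 79.3% ± 1.6 and 80.8% ± 0.7. Without WT replicate 2 the difference was -1.79 in place of -2.70 percentage points for SLC2A1 and 0.696 in place of 1.56 for SLC2A3. For 10 of the 22 shares the groups were apart, those of PDK1, PDK2, PDK3, HK1, PFKP, ALDOA, SLC2A1, SLC2A4, SLC2A8 and SLC2A10, and the exact two-sided permutation test gave p = 0.1, the smallest that 3 against 3 libraries allow, with an adjusted p of 0.22 over all shares compared. This test therefore cannot reach 0.05 for any share with these libraries. The shares of a family are parts of a whole, so these differences are not separate results. The PDK3 share, for example, was lower in S6K1-/- libraries while the gene's own log2 fold change was 0.10.

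HIF1A and the hypoxia-inducible genes had 0 of 5 genes past 0.001 by edgeR or DESeq2 and 1 past 0.05 by edgeR, with 1 lower and 1 higher at an unadjusted p of 0.05, near the background of 14.5% and 11.8%. HIF1A, the oxygen-regulated subunit whose protein is controlled mainly by degradation, had 241.2, 233.9 and 250.1 CPM in WT and 257.6, 238.8 and 245.7 CPM in S6K1-/- libraries. Its groups overlapped, with a log2 fold change of 0.03 (95% interval -0.06 to 0.12). EGLN3, a prolyl hydroxylase that marks HIF alpha subunits for degradation and is itself induced by hypoxia, had 18.0, 19.9 and 21.4 CPM in WT and 16.4, 17.3 and 16.4 CPM in S6K1-/- libraries. These groups did not overlap, and the log2 fold change was -0.25 (SE 0.073, 95% interval -0.40 to -0.09, edgeR adjusted p = 0.0372). It stayed under 0.05 in 1 of the 6 fits that left out 1 library, without WT replicate 1, and the other fits gave edgeR adjusted p values of 0.0579 to 0.176. The DESeq2 Wald test gave it an adjusted p of 0.103.

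BNIP3, VEGFA and CA9 had fold changes of both signs, and none of these 3 genes passed 0.05 with all libraries. BNIP3, a mitophagy receptor, had a log2 fold change of 0.04 with overlapping groups, and without WT replicate 2 it had 0.16 (edgeR adjusted p = 0.0383). VEGFA, the angiogenic growth factor, had 0.10 (edgeR adjusted p = 0.163), with 51.5 to 55.5 CPM in WT and 55.9 to 58.4 CPM in S6K1-/- libraries. CA9, a carbonic anhydrase with very low background outside hypoxia, had 9 to 16 counts in WT and 5 to 13 in S6K1-/- libraries, and a difference was not detectable at this depth (log2 fold change -0.41, 95% interval -1.20 to 0.37).

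Over all roles, 14 of the 39 genes had groups that did not overlap (35.9%), 11 of them with S6K1-/- lower and 3 higher, against 30.7% of all genes tested, and 28.2% against 16.7% for S6K1-/- lower. Replicate 2 stood out within both groups. WT replicate 2 was the highest of its group for 24 of the 39 genes (61.5%, against 35.7% of all genes tested), and S6K1-/- replicate 2 for 20 (51.3%, against 34.2%). It was the highest in both groups for 14 genes (35.9%, against 13.1%), SLC2A1, LDHA, PGK1, PKM and SLC16A3 among them. For SLC2A1 it exceeded the mean of the other libraries by 0.31 on the log2 scale in WT and by 0.25 in S6K1-/- cells. Without both replicate 2 libraries, an alternative chosen after seeing the data, 3 genes were lower and 1 higher at 0.001 (1.72% and 0.884% of all genes in that fit), with SLC2A1 at -0.57 and PFKP at an edgeR adjusted p of 0.00116.

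**Figure D5:**
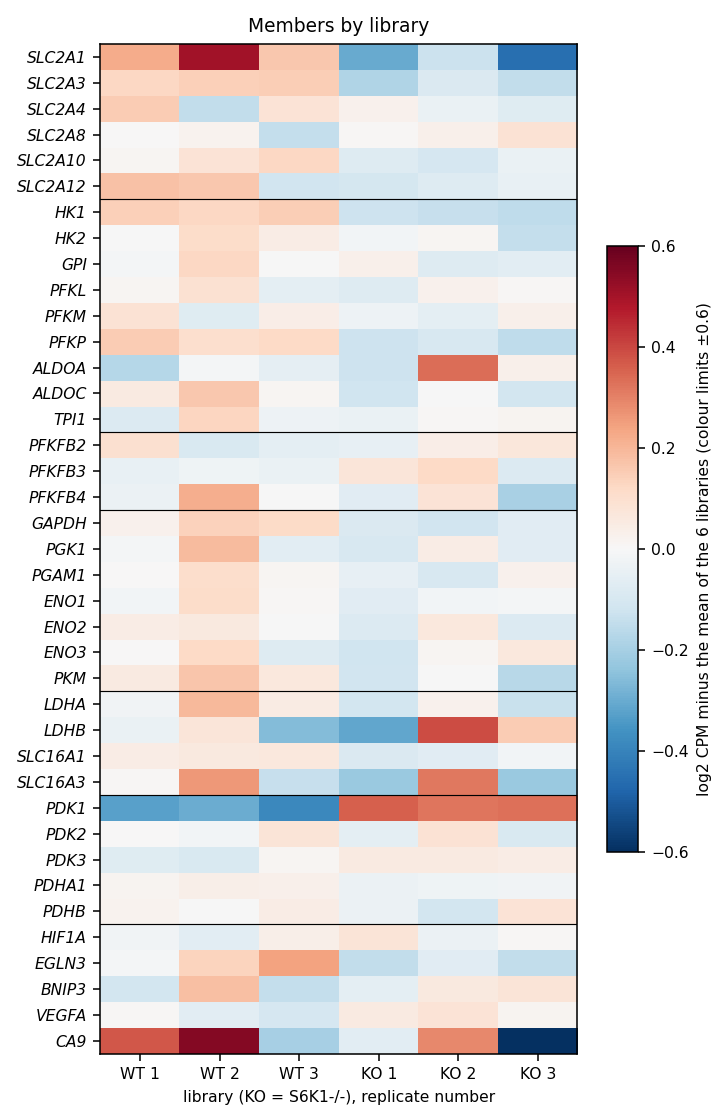
Log2 CPM of each gene (rows) in each library (columns) as the difference from the gene's mean over the 6 libraries, on a colour scale cut at its limits, which CA9 exceeds. Rows such as PDK1, SLC2A1, HK1 and PFKP change between the groups, while SLC16A3, LDHB and BNIP3 vary more within a group.

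Other genes of the same metabolism were read from 7 lists of 90 genes, of which 89 were in the table and 71 were tested. At 0.001, 4 of the 71 were lower and none higher (5.63% against 2.54% of all genes lower), and at 0.05 there were 15 lower and none higher (21.1% against 8.31%). DESeq2's Wald test also gave 0 higher at 0.001, and at edgeR's unadjusted p of 0.05 there were 23 lower and 5 higher (14.5% and 11.8% of all genes tested). Of 12 tested other isozymes and transporters, 1 fell at 0.001 and 5 were lower at 0.05 (41.7%). The gene past 0.001 was LDHD, a mitochondrial D-lactate dehydrogenase, with 233, 231 and 211 counts in WT and 116, 129 and 109 in S6K1-/- libraries (log2 fold change -0.87, SE 0.091, edgeR adjusted p = 8.7e-06). Of 20 other hypoxia-inducible genes 1 fell at 0.001 and 4 were lower at 0.05 (against 8.31% of all genes tested), and 16 had fold changes below 0 (80.0%, against 50.6%, median -0.09). The gene past 0.001 was CA12, a membrane carbonic anhydrase, with 127, 145 and 126 counts in WT and 72, 67 and 65 in S6K1-/- libraries (log2 fold change -0.90, SE 0.12, edgeR adjusted p = 8.33e-05). The groups did not overlap for either gene, and both calls held in all 6 fits that left out 1 library.

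Among 7 oxygen-sensing regulators EPAS1 fell, which encodes HIF2 alpha, the second oxygen-regulated HIF subunit. It had 175, 179 and 162 counts in WT and 112, 111 and 102 in S6K1-/- libraries (log2 fold change -0.61, SE 0.097, edgeR adjusted p = 0.000526), well apart, but each of the 6 fits without 1 library put its edgeR adjusted p between 0.0021 and 0.00336, and the DESeq2 Wald test gave an adjusted p of 0.00186. Among 11 genes of glycogen metabolism PYGM fell, the muscle form of glycogen phosphorylase. It had 99, 123 and 109 counts in WT and 49, 50 and 48 in S6K1-/- libraries (log2 fold change -1.11, SE 0.14, edgeR adjusted p = 4.97e-05). This was the largest change among the 71, on a gene with few counts.

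The remaining lists had 0 genes past 0.001 by edgeR or DESeq2, and at an unadjusted p of 0.05 they had 3, 1 and 0 lower and 0, 0 and 1 higher in the order given, against 14.5% and 11.8% of all genes tested. Among 9 genes of pyruvate entry into mitochondria the smallest edgeR adjusted p was 0.0441 for PDP2, a phosphatase that reverses the action of the PDKs, with a log2 fold change of -0.14. Among 5 genes of gluconeogenesis it was 0.0208 for PCK2, the mitochondrial phosphoenolpyruvate carboxykinase, with -0.15. Among 7 genes of the pentose phosphate pathway it was 0.0825 for TALDO1, transaldolase, with 0.11, and 1 of the 7 fold changes was below 0 (median 0.03).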

How the data were processed

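The authors trimmed the paired-end reads with Trim Galore 0.6.5, aligned them to GRCh38 with Bowtie2 2.4.5, which does not align across splice junctions, and processed the alignments with Sambamba. They counted reads per gene with featureCounts (versions from the submitters' processing notes) and deposited whole-number counts without normalization. The annotation release and strand setting are not given in the sources used here. A deposited table of the authors' own DESeq2 comparison, holding fold changes, test statistics and p-values, was not used.

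The filter filterByExpr, TMM scaling and the quasi-likelihood test of edgeR 4.0.16 were run in R 4.3.3 on genotype alone, with Benjamini-Hochberg adjustment over all genes tested. CPM values are TMM-scaled. The steps were tested on simulated data. Exonic lengths and overlaps came from GENCODE 44. Per-library values are printed for genes with an adjusted p under 0.05 and for the most abundant gene of each role, and other isozymes and pathway genes are named at 0.001 or by the smallest adjusted p of their list. Further values were chosen after they were seen. The 39 genes, the lists and the naming rule were chosen with earlier results of these data known. Alternatives were DESeq2's size factors and Wald test (DESeq2 1.42.0), other filters and thresholds, the replicate number as a block, pseudogene rows added and each library left out.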

Additional observations from a re-analysis of the deposited data

How the results depend on the processing

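With 3 libraries a group, the calls of SLC2A1, SLC2A3, HK1 and PFKP lie close to the 0.001 threshold. The number of the 39 genes lower was 4, and it ranged from 0 to 4 when 1 library was left out, with 1 without WT replicate 1 or WT replicate 3 and 0 without S6K1-/- replicate 1 or S6K1-/- replicate 3. Over all genes these 6 fits called 1.57% to 2.24% lower, against 2.54% with all libraries. The number lower of the 39 was 6 with no filter on low counts (2.6% of all genes), where GAPDH and PKM joined. It was 5 by the DESeq2 Wald test (2.59%), where GAPDH joined, and 7 at an edgeR adjusted p of 0.05 (8.31%). The fit with no filter gave far smaller p-values for some genes, such as SLC2A1 (edgeR adjusted p = 3.55e-37 in place of 0.000144). Its calls are therefore not on an equal footing with those of the filtered fit. The number higher was 1 in every setting run. Of the 7 lists of other genes, 4 genes were lower, 9 with no filter on low counts, 15 at 0.05, 8 at 0.01 and 1 without both replicate 2 libraries. With the replicate number as a block 3 of the 39 genes were lower and 1 higher, with PFKP at an edgeR adjusted p of 0.00131, LDHA and ALDOC passed 0.05 (edgeR adjusted p = 0.027 and 0.0371), and the counts over all genes were 423 lower and 241 higher in place of 496 and 278. Whether the numbers pair the libraries is not known. Deviations of same-numbered libraries correlated by 0.018, 0.0017 and 0.032 across genes. A correlation over all genes cannot exclude a pairing that shows in few of them. Replicate 2 was the highest in both groups for 35.9% of the 39 genes, against 13.1% of all genes tested.

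Signs of small fold changes turned when 1 library was left out, over log2 fold changes of -0.1456 to 0.008 for SLC2A4, -0.0586 to 0.0111 for PFKL, -0.083 to 0.0041 for PFKM, -0.0484 to 0.0533 for TPI1, -0.0016 to 0.1011 for PFKFB2, -0.125 to 0.0007 for PGK1, -0.0679 to 0.0244 for ENO3, -0.2746 to 0.0502 for SLC16A3, -0.0935 to 0.0056 for PDK2, -0.0881 to 0.0019 for PDHB and -0.0085 to 0.1557 for BNIP3. Without both replicate 2 libraries TPI1 stood at 0.0462, PFKFB2 at -0.0124 and ENO3 at 0.0115. The cause was not tested. Rows with few counts, such as CA9, limit what these depths can show.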
